A study of Mus musculus with 6 samples.

Results

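Tcf21 (capsulin) and Msc (musculin, also called MyoR) were followed through the mandibular arch of mouse embryos, the tissue that forms the lower jaw and its chewing muscles. These 2 genes, of 18193 genes with a probe set of their own on the array, were taken by symbol, with every probe set that the platform annotation assigns to 1 of them alone. Tcf21 (Entrez gene 21412, chromosome 10) has 2 such probe sets and Msc (Entrez gene 17681, chromosome 1) has 1. RNA of mandibular arches at E10.5 was hybridised to 6 Affymetrix Mouse Genome 430 2.0 arrays, 3 from embryos labelled Tbx1-/- and 3 from embryos labelled Tbx1+/+. Both genotypes are given as strain C57BL/6, and neither the Tbx1 allele nor any treatment is given. The tissue was pooled over 3 embryos per genotype, and the sources used here do not settle whether each array had a pool of its own, so p-values cover the spread between these arrays alone. All levels are the authors' log2 values, in which a difference of 1 is a change of 2-fold.

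Tcf21 and Msc are basic helix-loop-helix transcription factors, which bind the E-box motif of DNA as dimers with the widely expressed E proteins. In the mouse arch both mark the mesodermal core, the cells from which the muscles of chewing arise, while the surrounding mesenchyme comes from the neural crest. The 2 factors are known to act redundantly: mouse embryos without both lack the main jaw-closing muscles, and both are known to act upstream of the muscle determination genes Myf5 and Myod1. Tbx1, a T-box transcription factor, is also expressed in this core, and the comparison asks which of its transcripts differ when Tbx1 is lost.

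Of the 2 members only Tcf21 had a window among the RefSeq promoter windows used, so none is shown for Msc. The promoter window of Tcf21 (250 bases before to 50 after the annotated start) is shown because the factor the study removed is a DNA-binding one. That of Lrrn1, a membrane protein gene whose profile over the arrays was among the 5 most like that of Tcf21, is set beside it, since Tcf21 and Msc bind E-boxes. The windows are in build GRCm38.p6, Tcf21 at chr10:22820094-22820393 on the minus strand and Lrrn1 at chr6:107529476-107529775 on the plus strand, each written 5′ to 3′ along its gene, with every match to the E-box CANNTG in capitals.
Tcf21: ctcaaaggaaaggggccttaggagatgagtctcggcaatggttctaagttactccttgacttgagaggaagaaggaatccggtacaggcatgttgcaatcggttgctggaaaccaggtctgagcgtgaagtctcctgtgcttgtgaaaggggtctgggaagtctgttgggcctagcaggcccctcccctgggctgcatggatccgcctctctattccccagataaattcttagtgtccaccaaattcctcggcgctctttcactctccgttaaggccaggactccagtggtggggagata
Lrrn1: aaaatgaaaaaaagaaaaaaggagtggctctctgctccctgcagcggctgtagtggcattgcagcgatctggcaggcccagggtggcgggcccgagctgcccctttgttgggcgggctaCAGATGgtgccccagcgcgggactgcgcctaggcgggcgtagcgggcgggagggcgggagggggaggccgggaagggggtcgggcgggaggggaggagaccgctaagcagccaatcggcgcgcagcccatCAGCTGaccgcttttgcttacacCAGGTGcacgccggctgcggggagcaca
The Tcf21 window held 0 matches to the E-box and the Lrrn1 window 3. Of other genes that are described below, the Myf5 window held 0, and the 2 windows of Lhx2 held 0 and 1. The E-box reads the same on both strands, and 72.3% of 32851 promoter windows of 300 bases held at least 1. None of these 5 windows held AGGTGT, a half-site of the T-box motif, on either strand, as against 13.7% of all windows. A match describes these letters only, and its absence here says nothing of binding elsewhere at the gene.

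Before the members, 3 facts about the arrays bear on every value. The Tbx1 probe set did not check the labels: it read 7.59, 7.50 and 7.30 on the arrays labelled Tbx1-/- and 6.93, 7.31 and 6.92 on the Tbx1+/+ arrays (difference 0.41, SE 0.14, limma adjusted p = 1.00; two-sided exact permutation p = 0.20). Which part of Tbx1 was deleted is not given, so directions below follow the genotype as labelled. Labelled Tbx1-/- replicate 3 stood apart, where 249 genes exceeded the average of the remaining 5 arrays by over 1, against 6 to 32 genes on each of those. The placental marker list (5 of 8 listed genes analysed) averaged 9.59 on that array, 5.82 and 6.09 on the other labelled Tbx1-/- arrays and 5.57 to 5.73 on the Tbx1+/+ arrays. The changes of the members are therefore also given without that array. On the low side labelled Tbx1-/- replicate 1 had the most genes, 90 lying over 1 below the other arrays, against 8 to 36 on each of those. Without labelled Tbx1-/- replicate 1, Tcf21 differed by -1.61 and Msc by -0.79. Markers of neural crest mesenchyme (11 genes) averaged 10.12 to 10.21 on the labelled Tbx1-/- arrays and 10.12 to 10.17 on the Tbx1+/+ arrays.

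Tcf21 transcript was lower on the arrays labelled Tbx1-/-. On its brighter probe set, 1417447_at, Tcf21 read 5.76, 5.63 and 5.45 on labelled Tbx1-/- replicates 1 to 3, against 7.10, 7.01 and 7.33 on Tbx1+/+ replicates 1 to 3. The groups lay apart by 1.26, the distance between the highest labelled Tbx1-/- array and the lowest Tbx1+/+ array, while the arrays within each genotype spanned 0.31. Tcf21 averaged 5.61 ± 0.15 on the labelled Tbx1-/- arrays and 7.15 ± 0.16 on the Tbx1+/+ arrays (log2, SD, n = 3 each). The difference of -1.53 (SE 0.13, 95% interval -1.84 to -1.23) put it 2.90-fold lower, at 34.5% of the Tbx1+/+ level. Its adjusted p was 0.0185 in limma with Benjamini-Hochberg adjustment over 16073 genes, of which 4 were called lower (0.0249%). By p it ranked 2 of all genes, behind Lrrn1, and by the size of the fall it ranked 8. A two-sided exact permutation test over the arrays gave p = 0.10, the smallest that 3 arrays against 3 allow.

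The fall of Tcf21 did not hang on the array that stood apart. Without labelled Tbx1-/- replicate 3 the difference was -1.45 with a limma adjusted p of 0.00867. The call did depend on the number of Tbx1+/+ arrays: the difference stayed at -1.56, -1.60 and -1.44 without Tbx1+/+ replicate 1, 2 and 3, but the limma adjusted p was 0.203, 0.113 and 0.138. In a bulk sample fewer core cells and less Tcf21 RNA per cell cannot be told apart.

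The second Tcf21 probe set, 1458887_at, carried little signal. It read 2.40, 2.94 and 2.44 on the labelled Tbx1-/- arrays, against 2.24, 2.54 and 2.43 on the Tbx1+/+ arrays. None of the 6 values passed 4, the level used as a filter here, and the groups overlapped. The difference of 0.19 (SE 0.15, 95% interval -0.16 to 0.54; 0.27 without labelled Tbx1-/- replicate 3 and 0.019 without replicate 2) had a limma adjusted p of 1.00 over 45037 probe sets, in the same fit in which 1417447_at had an adjusted p of 0.0481 and 0.00444% of sets were called lower. On each array this set lay between percentile 0.207 and 3.96 of all probe sets, and the lowest value of any set was 1.95 to 2.06, which leaves no room for a fall of the size seen on the other set. Averaged with it, Tcf21 as a gene differed by -0.67 and was not called (limma adjusted p = 0.366).

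Msc was lower on all the arrays labelled Tbx1-/- too, but did not pass the threshold over all genes. Its probe set, 1418417_at, read 4.81, 4.58 and 5.17 on labelled Tbx1-/- replicates 1 to 3, against 5.72, 5.60 and 5.67 on Tbx1+/+ replicates 1 to 3. The groups did not overlap, but the gap of 0.43 was smaller than the span of the labelled Tbx1-/- arrays, 0.59, whose highest array was replicate 3. The Tbx1+/+ arrays spanned 0.12. Msc averaged 4.85 ± 0.30 on the labelled Tbx1-/- arrays and 5.66 ± 0.06 on the Tbx1+/+ arrays (log2, SD, n = 3 each). The difference of -0.81 (SE 0.16, 95% interval -1.18 to -0.45) corresponds to 57.0% of the Tbx1+/+ level. Its limma adjusted p was 0.426, and its unadjusted p of 8.3e-04 ranked 31 of 16073. A two-sided exact permutation test gave p = 0.10, the smallest possible. Without labelled Tbx1-/- replicate 3 the difference was -0.97 with a limma adjusted p of 0.0506. Both members thus had groups that did not overlap on the lower side, as 3.25% of all genes did.

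**Figure D1:**
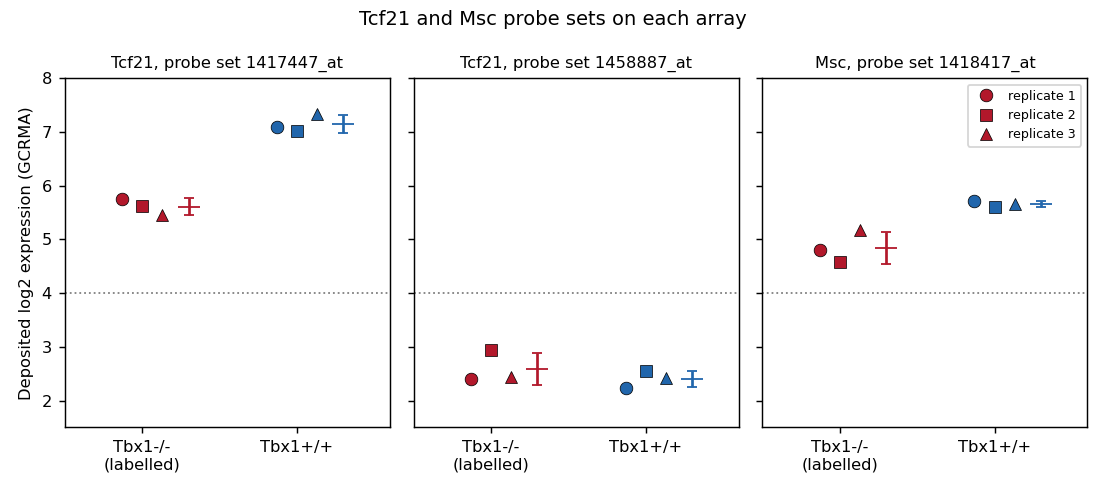
Deposited log2 expression of the 2 Tcf21 probe sets and the Msc probe set on each array, with labelled Tbx1-/- arrays at the left and Tbx1+/+ arrays at the right of each panel. Symbols mark the replicate number, bars the mean and SD of 3 arrays, and the dotted line the filter level of 4. The genotypes separate on the brighter Tcf21 set and on the Msc set, and overlap at 2.94 or below on the dim Tcf21 set.

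The members' levels were set against the range of the arrays. The 1417447_at set of Tcf21 lay between percentile 40.1 and 45.4 of all probe sets on the labelled Tbx1-/- arrays and between 60.4 and 63.8 on the Tbx1+/+ arrays. The Msc set lay between percentile 26.0 and 35.6 on the labelled Tbx1-/- arrays and between 42.4 and 44.5 on the Tbx1+/+ arrays. Array medians were 6.08 to 6.15, so Tcf21 stood 0.33 to 0.68 below the median on the labelled Tbx1-/- arrays and 0.89 to 1.18 above it on the Tbx1+/+ arrays. Msc stood below the median on every array.

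Genes restricted to other tissues gave a measure of the background. Of 16 such genes, among them sperm protamines, milk proteins and pancreatic enzymes, 12 had a probe set of their own, and the median over their brightest sets was 5.17 to 5.25 on the labelled Tbx1-/- arrays and 5.01 to 5.39 on the Tbx1+/+ arrays. Their means over the 6 arrays ran from 2.53 for Umod, a kidney protein, to 8.22 for Prm1, a protamine, whose set carries the suffix _x_at that the maker gives to sets with probes shared with other transcripts. Of the 12 genes, 7 had a higher mean than Msc on the labelled Tbx1-/- arrays, and 4 a higher mean than Msc on the Tbx1+/+ arrays. For Tcf21 the counts were 4 on the labelled Tbx1-/- arrays and 1 on the Tbx1+/+ arrays. The 4 above Tcf21 on the labelled Tbx1-/- arrays were also the 4 above Msc on the Tbx1+/+ arrays. They were Prm1, Ins2 (6.08), Tnp1 (5.97) and Gh (5.76), and of their sets only that of Tnp1 lacks the suffix _x_at. The Tcf21 level of the Tbx1+/+ arrays was thus above all but Prm1. The labelled Tbx1-/- level of Tcf21 and both levels of Msc lay among the 12 genes, with the higher of these partly on sets with shared probes. Of the 11 that were bright enough to be tested, 0 passed the limma threshold, and 1 of them, Cpa1, a pancreatic enzyme, had an unadjusted p under 0.05 and was lower with groups that did not overlap (difference -0.35, limma adjusted p = 1.00). Of all genes 0.0249% were called lower and 0.0124% higher. On the lower side, 1.2% of all genes had an unadjusted limma p under 0.05 and 3.25% had groups that did not overlap. Near the background a fold change can understate a fall, so 34.5% and 57.0% of the Tbx1+/+ level are not measures of how much transcript was left.

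**Figure D2:**
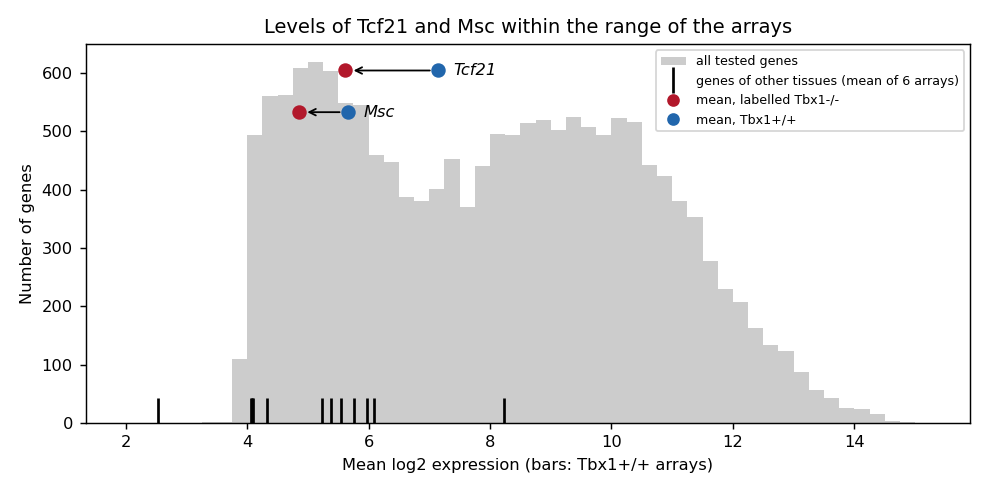
Number of genes (vertical axis) at each mean log2 expression on the Tbx1+/+ arrays (grey bars, 16073 tested genes), with the means of Tcf21 and Msc on labelled Tbx1-/- arrays (red) and Tbx1+/+ arrays (blue) joined by arrows at arbitrary heights. Black ticks mark the 6-array means of 12 genes restricted to other tissues. The arrow of Tcf21 ends at 5.61 and that of Msc at 4.85, both among the ticks.

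The changes of the members were compared with each other as the per-array difference between the 2 probe sets, of which only the shift between genotypes can be read, since probe sets differ in brightness. Tcf21 minus Msc was 0.95, 1.05 and 0.28 on labelled Tbx1-/- replicates 1 to 3, against 1.38, 1.41 and 1.66 on Tbx1+/+ replicates 1 to 3. The shift of -0.72 is the change of Tcf21 minus that of Msc, and the groups did not overlap. Since both levels of Msc lay among those of the genes restricted to other tissues, its change may be compressed, and the shift is one of measured values near background, not of transcript amounts. A two-sided exact permutation test gave p = 0.10, the smallest possible, and without labelled Tbx1-/- replicate 3 the shift was -0.48. Array by array the 2 members differed among the labelled Tbx1-/- arrays: replicate 3 had the lowest Tcf21 value and the highest Msc value.

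The genes whose pattern was most like each member were then taken by Pearson r over the 6 arrays, as a description with no test, since 3 arrays of each genotype share their level and any gene with tight groups scores high. For Tcf21 they were Ids, a lysosomal sulfatase (r = 0.989), Lrrn1 (r = 0.987), Ermap, a membrane protein of erythroid cells (r = 0.978), Foxc1, a forkhead factor of head mesenchyme (r = 0.976), and Tyms, thymidylate synthase (r = 0.974). Lrrn1 was the only one of these 5 past the limma threshold, at -1.55 (SE 0.10, adjusted p = 0.00340), close in size to Tcf21, a call lost without Tbx1+/+ replicate 3 (0.0628) and with the mean of its probe sets (-0.68, 0.217). Foxc1 differed by -0.54 (SE 0.09, limma adjusted p = 0.293), and Ids, Ermap and Tyms by -0.12, -0.30 and -0.13, none of them past the threshold. On the 5 arrays without labelled Tbx1-/- replicate 3, a repeat chosen after the values were seen, 2 of the 5 genes (Ids and Foxc1) were still among the 5 most like Tcf21, and Lrrn1 ranked 6.

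For Msc the most similar genes were Homer2, a synaptic scaffold protein (r = 0.989), Vgll3, a cofactor of TEAD transcription factors (r = 0.976), Cend1, a neuronal differentiation gene (r = 0.975), Chrdl1, a secreted BMP antagonist (r = 0.973), and Lhx2, a LIM homeodomain factor of the core (r = 0.971). Like Msc, all 5 read highest among the labelled Tbx1-/- arrays on replicate 3. Lhx2 read 4.27, 4.14 and 5.04 on the labelled Tbx1-/- arrays, against 5.98, 6.38 and 6.22 on the Tbx1+/+ arrays. Chrdl1 differed by -1.36 (SE 0.15, limma adjusted p = 0.0492, and 0.0591 in the fit blocked by replicate number), and with 1 array left out it was called only without labelled Tbx1-/- replicate 3 (0.00347; 0.122 to 0.422 otherwise). The Chrdl1 call was also lost without the filter (limma adjusted p = 0.0563) or the trend (0.0902), with values under 4 raised to 4 (0.0571) and with the mean of probe sets (-0.69, 0.304). Homer2, Vgll3 and Cend1 differed by -0.37, -0.53 and -0.18 and did not pass. Without labelled Tbx1-/- replicate 3, 2 of the 5 genes (Homer2 and Cend1) were still among the 5 most like Msc. The placental marker level moved with that replicate as well, and its part in the Msc and Lhx2 values was not tested.

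**Figure D3:**
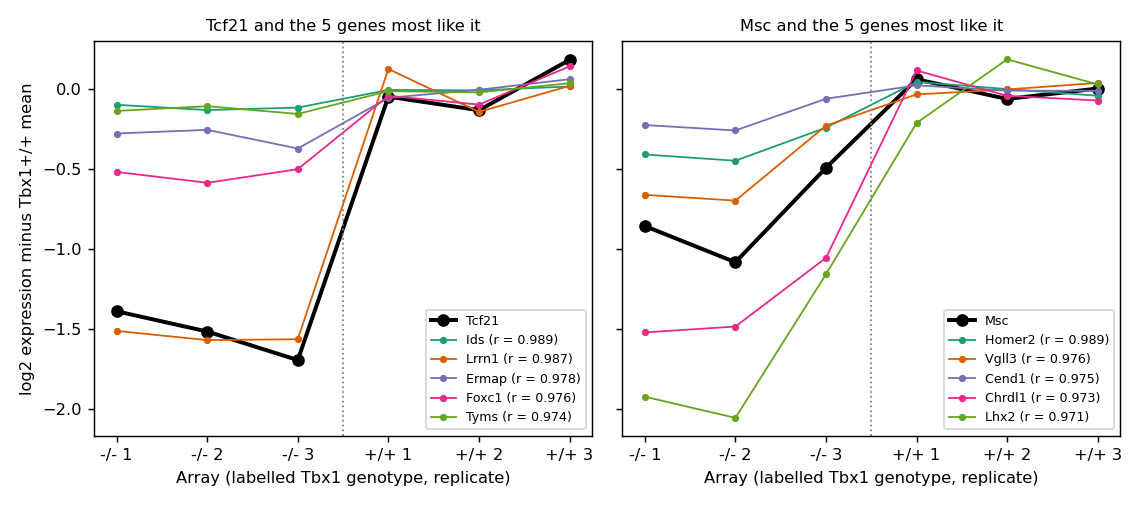
Log2 expression minus the Tbx1+/+ mean on each array for Tcf21 (left) and Msc (right), in black, and the 5 genes most like each by Pearson r over 6 arrays, in colour. Lines only join the points of 1 gene, and the dotted line divides labelled Tbx1-/- arrays from Tbx1+/+ arrays. Lrrn1 overlies Tcf21, while Msc and its 5 genes share a higher value on labelled Tbx1-/- replicate 3.

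Beyond the members, Myf5 fell among the regulators of head muscle and the other 19 tested did not pass. Of 22 listed regulators of branchiomeric muscle, 20 were tested, and 1 was lower past the limma threshold, 0 were higher and 19 did not pass; of all genes 0.0249% were called lower and 0.0124% higher. Without adjustment, 5 had p under 0.05 and were lower and 2 were higher, as 1.2% and 1.47% of all genes were. The 2 higher were Gata6 and Tbx1 itself, whose probe set is described above. The median difference of the 20 was -0.01, as was that of all 16073 genes. Myf5, a determination factor of skeletal muscle that acts downstream of both members in the mouse arch, read 4.71, 5.91 and 5.22 on the labelled Tbx1-/- arrays, against 7.58, 7.75 and 7.51 on the Tbx1+/+ arrays, a difference of -2.33 (SE 0.27, limma adjusted p = 0.0492). The Myf5 call was lost without Tbx1+/+ replicate 1 (limma adjusted p = 0.461), 2 (0.406) or 3 (0.233), and it was lost without the filter (0.0563) or the trend (0.111), with values under 4 raised to 4 (0.0571), with the mean of probe sets (0.108) and with array weights (0.0897).

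Groups did not overlap on the lower side for 5 of the 20 regulators, against 3.25% of all genes. These were Myf5, Lhx2 (difference -1.71, SE 0.23, limma adjusted p = 0.113), Myod1, the other early muscle determination factor (-0.84, SE 0.16, 0.387), Myog, which drives muscle differentiation (-0.59, SE 0.14, 0.959), and Pax7, a factor of muscle progenitors (-0.75, SE 0.22, 1.00). With the mean of the probe sets of a gene, Myod1 differed by -0.45 and Pax7 by -0.38, while Lhx2 and Myog stayed at -1.71 and -0.59. Without labelled Tbx1-/- replicate 3, Lhx2 differed by -1.99 with a limma adjusted p of 0.00347, so that 2 of the 20 were called lower. In that fit 8 of all 16073 genes were called lower. Lhx2 was also called with array weights (-1.92, limma adjusted p = 0.0362), where Myf5 was not. On the higher side were 2 of the 20, against 3.17% of all genes: Ebf3, a helix-loop-helix factor of the EBF family (difference 0.07, SE 0.05, limma adjusted p = 1.00), and Gata6. Gata6, a zinc-finger factor, read 5.82, 5.38 and 6.08 on the labelled Tbx1-/- arrays and 4.71, 5.03 and 4.97 on the Tbx1+/+ arrays (difference 0.86, SE 0.19, limma adjusted p = 0.636). With the mean of its probe sets Gata6 differed by 0.38. Isl1, a LIM homeodomain factor shared by the arch core and the second heart field, did not follow the members: it read 10.84, 10.38 and 10.42 on the labelled Tbx1-/- arrays and 10.43, 10.52 and 10.34 on the Tbx1+/+ arrays (difference 0.12, 95% interval -0.18 to 0.41). Of the 6 genes listed as core markers 5 were analysed, both members included, and their mean level was 6.30 to 6.48 on the labelled Tbx1-/- arrays and 7.45 to 7.50 on the Tbx1+/+ arrays. The 5 were the members, Myf5, Myod1 and Isl1, each already described above, so this mean is not a separate reading of the core. Isl1 was far the brightest of them, and no value of the others passed 7.75, that of Myf5 on Tbx1+/+ replicate 2. Which cells of the bulk sample gave the Isl1 signal was not tested.

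The dimer partners and inhibitors of the members were bright, and 0 of 7 passed the limma threshold (1 had an unadjusted p under 0.05, in the higher direction). Of all genes 0.0249% were called lower and 0.0124% higher, so a count of 0 is no result about these 7. Without adjustment, 1.2% of all genes had p under 0.05 and were lower and 1.47% were higher. The E proteins Tcf3, Tcf4 and Tcf12, with which Tcf21 and Msc pair on DNA, differed by -0.01 (95% interval -0.26 to 0.25), 0.04 (-0.13 to 0.20) and -0.03 (-0.24 to 0.17). These signs flip with array weights or with 1 array left out, and the intervals leave out changes of the size of Tcf21. The Id proteins, which bind E proteins and keep them from DNA, had higher means in all 4 cases. Id1 read 10.57, 10.51 and 10.17 on the labelled Tbx1-/- arrays and 10.27, 9.89 and 10.12 on the Tbx1+/+ arrays (difference 0.32, SE 0.14, limma adjusted p = 1.00). Id2, Id3 and Id4 differed by 0.12, 0.12 and 0.24 and did not pass. With 1 array left out, Id2 changed sign and Id3 was 0.041 (both without Tbx1+/+ replicate 2), and Id4 was 0.077 (without labelled Tbx1-/- replicate 1).

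Other tissue-restricted helix-loop-helix factors showed no change like that of the members. Of 20 on the array 13 were tested, 0 passed in limma and 0 had an unadjusted p under 0.05, with a median difference of 0.02 and a range of -0.36 to 0.42. Both counts are near the shares of all genes, 0.0249% lower and 0.0124% higher past the threshold, and 1.2% and 1.47% without adjustment. Twist1, the main such factor of crest mesenchyme, differed by 0.03 (95% interval -0.11 to 0.16). Among the tested genes the values furthest from 0 were those of Hand1, a factor of the ventral arch (0.42, SE 0.25), Tal1, a blood and endothelial factor (-0.36, SE 0.17), and Scx, a tendon factor (-0.35, SE 0.17). Hand1 was 0.11 without labelled Tbx1-/- replicate 3, and Tal1 and Scx were -0.22 and -0.18 without labelled Tbx1-/- replicate 1.

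**Figure D4:**
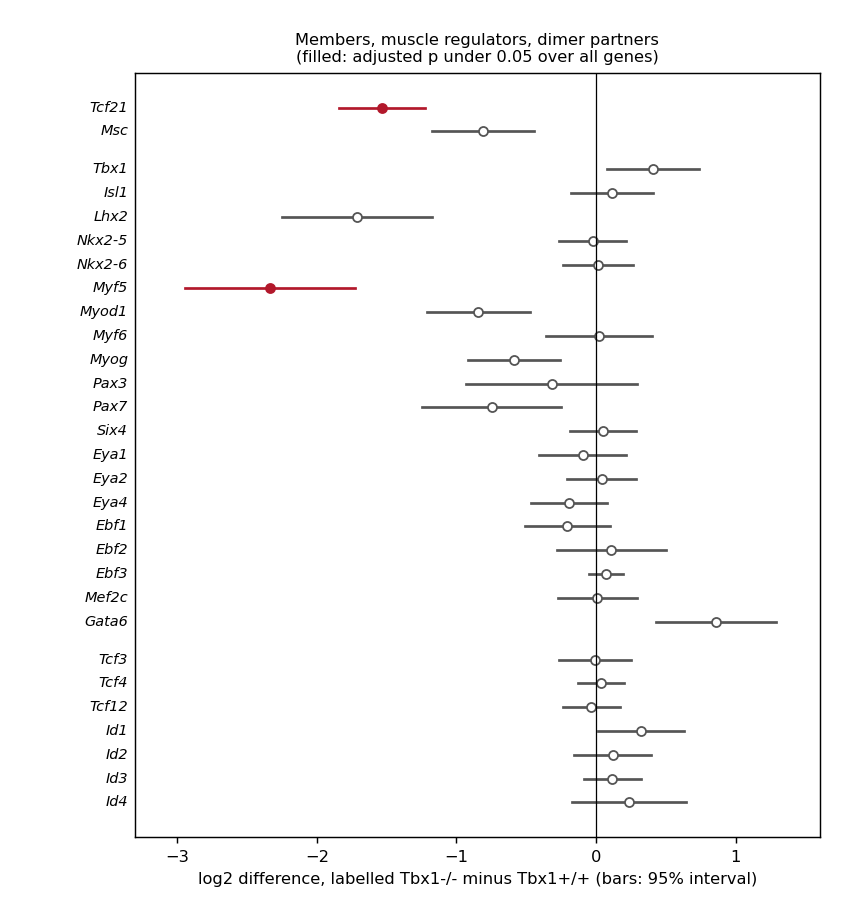
Log2 difference, labelled Tbx1-/- minus Tbx1+/+, with its 95% interval from limma for Tcf21 and Msc (top), 20 regulators of branchiomeric muscle (middle) and 7 E and Id proteins (bottom). Filled red points passed an adjusted p of 0.05 over all genes. Tcf21 and Myf5 are filled, Msc and Lhx2 lie below 0 without passing, and the intervals of the E proteins all include 0.

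Tcf21 is also known from the epicardium and the mesoderm of inner organs, and the heart lies next to the arch, so genes of those tissues were read as a check of the dissection. Of 14 epicardial and splanchnic genes, 14 were tested, 0 passed in limma (0 at an unadjusted p under 0.05), and their median difference was -0.00153. Of all genes 0.0249% were called lower and 0.0124% higher, and without adjustment the shares at p under 0.05 were 1.2% and 1.47%. A count of 0 called, here or in the lists below, is near those shares and is no result about a tissue. Pdgfra and Barx1 of the epicardial and splanchnic list are also on the crest mesenchyme list. With Foxf1 they averaged 11.85, 10.02 and 10.67 on the Tbx1+/+ arrays (Pdgfra, Barx1 and Foxf1). The median of a list with genes this bright cannot show whether heart or splanchnic tissue was carried over. The epicardial factors Wt1 and Tbx18 differed by 0.20 (SE 0.13) and -0.46 (SE 0.31). Tbx18 ran from -0.85 without labelled Tbx1-/- replicate 2 to -0.26 without replicate 1 (-0.27 without replicate 3), and was -0.072 with array weights. Markers of heart muscle averaged 4.70 to 4.98 on the labelled Tbx1-/- arrays and 4.72 to 4.76 on the Tbx1+/+ arrays over 8 genes, 0 of the 7 tested being called in limma (1 had an unadjusted p under 0.05, Myl2, in the lower direction), a level near that of the genes restricted to other tissues. Genes of the second arch and trunk averaged 5.36 to 5.93 on the labelled Tbx1-/- arrays and 4.95 to 5.03 on the Tbx1+/+ arrays over 5 genes, of which 0 were called in limma and 1, Hoxa2, had an unadjusted p under 0.05. The other 4 differed by 0.17 to 0.41. Hoxa2, which marks the second arch, read 5.65, 6.34 and 4.72 on the labelled Tbx1-/- arrays and 3.54, 3.16 and 3.15 on the Tbx1+/+ arrays (difference 2.29, SE 0.35, limma adjusted p = 0.205, and 0.00347 without labelled Tbx1-/- replicate 3). It was thus higher on the arrays where the members were lower, and its part in their values was not tested. Markers of endothelium, epithelium, neurons, erythroid cells and macrophages gave 0 calls in limma among 29 tested genes. Without adjustment, 2 had p under 0.05 and were higher and 0 were lower, against 1.47% and 1.2% of all genes. The 2 were Krt18 of epithelium (difference 0.80, and 0.31 without labelled Tbx1-/- replicate 3) and Stmn2 of neurons. Stmn2 read 5.71, 5.95 and 5.90 on the labelled Tbx1-/- arrays and 5.13, 4.60 and 5.11 on the Tbx1+/+ arrays. Its difference of 0.90 (SE 0.17, limma adjusted p = 0.340) was larger in size than that of Msc. The part of Stmn2 in the members' values was not tested. Of the other neuron markers, Tubb3, Elavl3, Elavl4, Sox10 and Neurod1 differed by -0.05, 0.07, 0.08, -0.03 and 0.26. Among the other epithelial markers, Krt8 differed by 0.87 (0.24 without labelled Tbx1-/- replicate 3) and Krt5 by -0.60. Epcam, Cdh1, Trp63 and Esrp1 differed by 0.06, 0.05, -0.01 and 0.01.

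**Figure D5:**
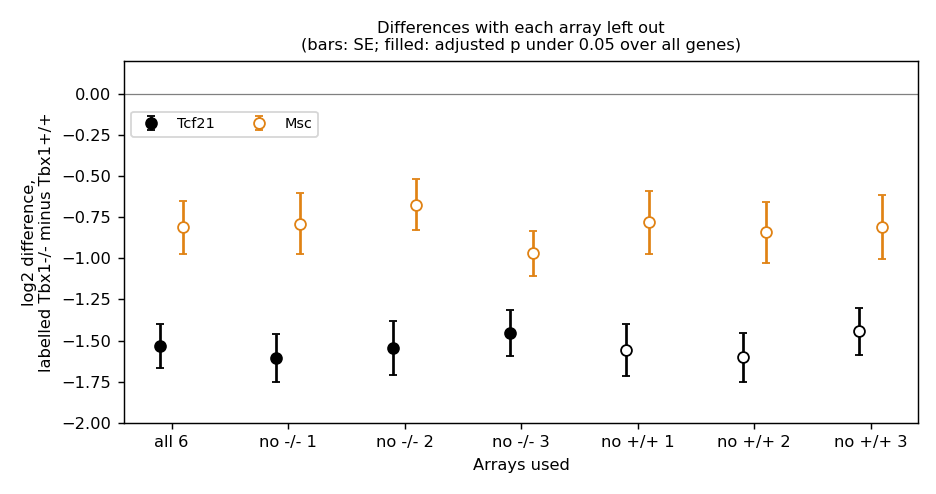
Log2 difference, labelled Tbx1-/- minus Tbx1+/+, of Tcf21 (black) and Msc (orange) with all 6 arrays and with each array left out, with the SE from limma as bars and filled points where the adjusted p over all genes was under 0.05. Tcf21 stays between -1.61 and -1.44 and loses the call when any 1 Tbx1+/+ array is left out. Msc stays between -0.97 and -0.68 and is not called.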

How the data were processed

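Mandibular arches of E10.5 mouse embryos were profiled on 6 arrays. The authors deposited log2 values per probe set, made with GCRMA (version not given) per the submitters' processing notes. That method adjusts background from probe sequence, makes arrays alike in distribution and merges the probes of a set, which removes shifts shared by most genes and compresses differences near background. The log2 scale was read from the values.

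Of 45101 probe sets, 64 were controls and 34945 had 1 gene symbol, giving 18193 genes. Each gene took its brightest set, and 16073 genes above 4 on at least 3 arrays were tested with limma 3.58.1 (R 4.3.3, intensity trend, genotype only, Benjamini-Hochberg, threshold 0.05). A second fit took all 45037 sets unfiltered. The limma step was first tested on simulated data. Named genes were the members, the 5 genes most like each, and all dimer partners. List members past the threshold or with the smallest p were named too, of which the text prints part. Isl1, Twist1, Ebf3, Cpa1, Hoxa2, Myl2, Umod, Prm1, Ins2, Tnp1, Gh, Pdgfra, Barx1, Foxf1, Krt18 and Stmn2 were chosen after their values were seen. The other epithelial and neuron markers were also named after their values were seen. The members and lists were chosen with earlier results of these data known.

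No array repeated another: each pair of arrays shared exactly equal values for 0.191 to 0.331% of probe sets. Same-numbered arrays of the 2 genotypes deviated weakly together from their genotype means (r = 0.261, 0.130 and 0.135, other pairs -0.195 to 0.0647). On that ground alone, replicate numbers served as a pairing in alternatives only, the replicate block and a paired exact test. The main fit and the main exact tests left the numbers out. The labels do not say what a number shares. With arrays, precision is limited by how many there are. 2 listed regulators were not analysed here.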

Additional observations from a re-analysis of the deposited data

How the results depend on the processing

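Tcf21 kept its direction in 15 alternatives and its call in 11. Its difference was -0.67 with the mean of its probe sets, and -1.61 to -1.44 with 1 array left out. In the fit over all probe sets, 1417447_at was not called after a further quantile normalization (limma adjusted p = 0.0572) or without any array but labelled Tbx1-/- replicate 3 (0.0604 to 0.447). Msc kept its direction and was not called in 14 alternatives, at -0.97 to -0.68, and the filter at 6 on at least 3 arrays left it untested. With the replicate block the limma adjusted p was 0.0362 for Tcf21 and 0.329 for Msc, and the block changed no call of a gene named here but that of Chrdl1. The shift of Tcf21 against Msc was -0.87 to -0.48 with 1 array left out, and a paired two-sided exact permutation test gave p = 0.25, as low as 3 pairs can go.

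The fit called 2 genes higher and 4 lower. It called 0 and 2 with no filter, with no trend or with values under 4 raised to 4, 0 and 0 with the mean of probe sets, 1 higher after further quantile normalization or centring on medians, and 4 higher and 6 lower with the replicate block. With 1 array left out it called 0 to 14 higher and 0 to 8 lower, the most without labelled Tbx1-/- replicate 3 and 0 of both without Tbx1+/+ replicate 3 (in limma 286 higher and 218 lower genes had p under 0.05 unadjusted). Muscle regulators called lower numbered 1, against 0 with no filter, no trend, values raised to 4 or the mean of probe sets, and 0 to 2 with 1 array left out. Signs reversed for genes near 0: with array weights Tcf3 differed by 0.10, Tcf4 by -0.021 and Tcf12 by 0.052; with 1 array left out Tcf3 ran from -0.080 to 0.088, Tcf4 from -0.017 to 0.091, Tcf12 from -0.089 to 0.051, Id2 from -0.00445 to 0.23 and Isl1 from -0.032 to 0.20. The cause was not tested. Signal over background limits Msc, the dim Tcf21 set and the labelled Tbx1-/- level of Tcf21. It also limits the sizes given for Myf5 and Lhx2, which averaged 5.28 and 4.48 on the labelled Tbx1-/- arrays. The same holds for Myog, Pax7, Gata6, Hoxa2 and Stmn2, whose levels in both genotypes lay among those of the genes restricted to other tissues.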
